A study of Mus musculus with 6 samples.

Results

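Immediate early genes are the genes that cells transcribe first when a signal reaches the nucleus, before any new protein has been made. The group was set by name, though with earlier results of these data known. It holds 10 genes, Fos, Fosb, Jun, Junb, Jund, Egr1, Egr2, Ier2, Ier3 and Zfp36, of 16637 genes named on the array. All 10 had a value in every sample, and they were read by 11 probes, since Fos had 2. The samples were brain, liver and intestine of male FVB mice, 6 to 8 weeks old, which all carried a luciferase transgene driven by NF-κB, the untreated mice included. The irradiated mice received 8.5 Gy of X-rays over the whole body in a single dose at 4 Gy/min, and RNA was taken at 3 h. Each organ had 1 irradiated and 1 untreated sample, 6 samples in all. The methods mention replicate mice, and how the 6 columns relate to individual mice is not given in the sources used here. The values used here therefore give no spread between replicates within an organ, and each difference below is between a pair of samples, with no SD or p-value. A change common to the 3 organs was not tested.

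In the textbook order of events, kinases of the MAPK cascades phosphorylate factors that are already bound at the promoter, such as Srf with its Elk partners and Creb1, and transcription starts within minutes and soon fades. Fos and Jun proteins pair through leucine zippers to form AP-1, Egr1 and Egr2 are zinc finger transcription factors, and Zfp36 (tristetraprolin) binds AU-rich mRNAs and leads them to decay. Induction of Egr1, Jun and human IER3 by ionizing radiation is known from cultured cells, while in tissue the same genes also respond to handling, feeding and the taking of the organ.

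At 3 h after irradiation the 10 genes did not share 1 direction in any organ. In the liver 3 of the 10 genes, Egr1, Zfp36 and Jun, were lower by at least 1.8-fold and none was higher. In the intestine Ier3 was higher and Zfp36 was lower past that threshold, and in the brain none of the 10 passed it either way. The threshold is the fold that the study's methods used. Of all genes measured, 2.53% were lower and 1.51% were higher by as much in liver, 2.79% were lower and 1.72% were higher in intestine, and 0.919% were lower and 0.447% were higher in brain. The 10 genes are few, and the counts in brain and intestine lie within 1 gene of such shares. The median log2 ratio of irradiated to untreated over the 10 genes was -0.00035 in the brain pair, 0.02 for liver and 0.01 for intestine, against 0.02 over all genes in each organ. In liver and intestine these medians fall between genes whose probes lay below the sample's median (Fos and Fosb in liver, Egr2 and Ier2 in intestine), so they say little of the genes with a readable signal.

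**Figure D1:**
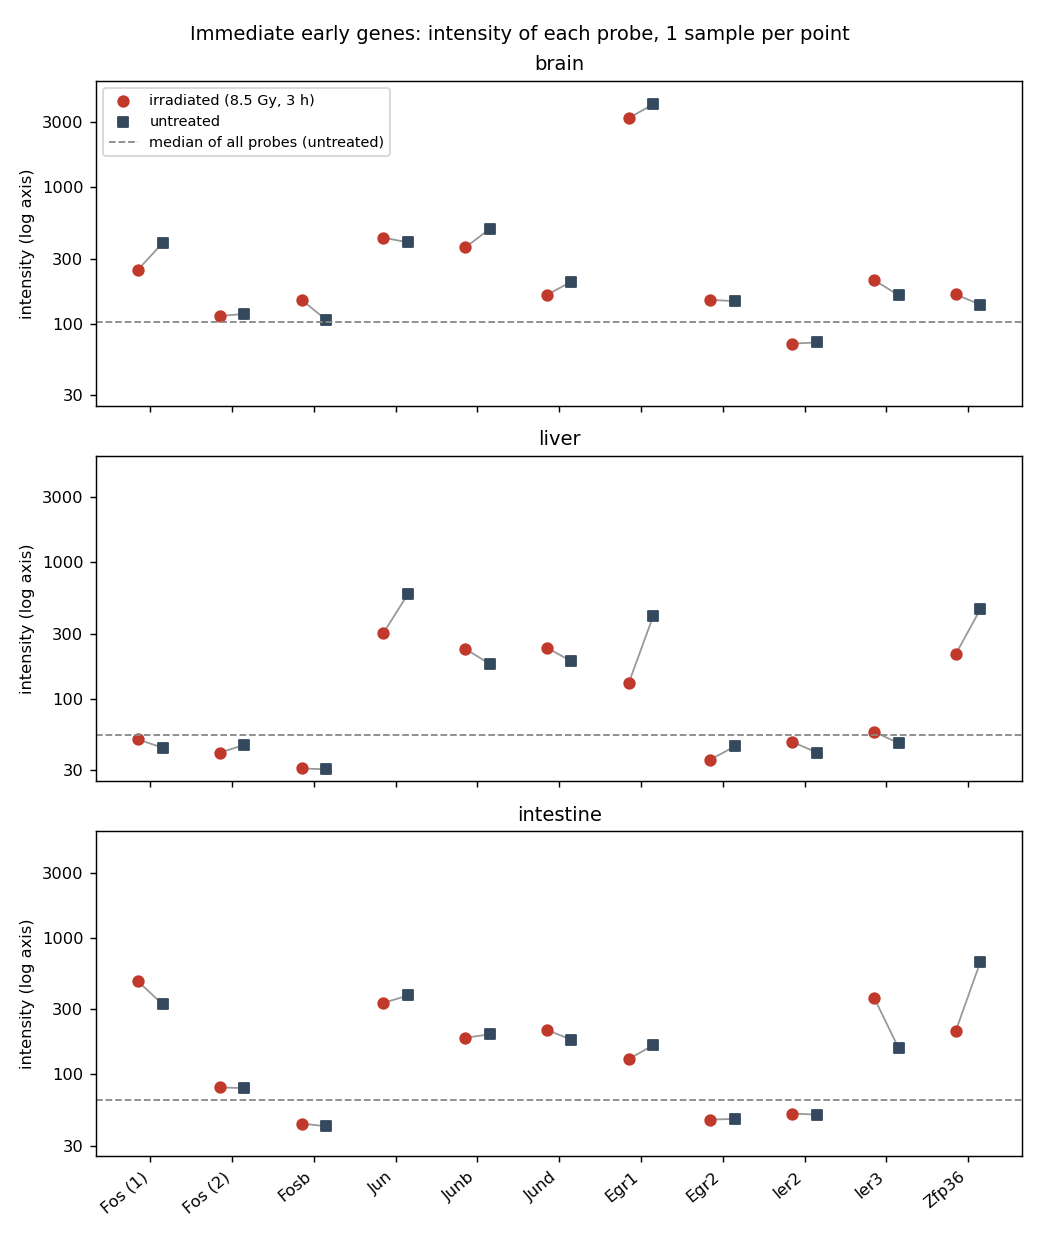
Intensity of each probe (log axis) in irradiated (circles, left of each pair) and untreated (squares, right) samples of brain, liver and intestine, with 1 sample per point and no error bars. The dashed line is the median of all probes in the untreated sample (103, 54 and 64.5), and in liver 5 of the 11 probes lie above it in both samples.

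For 3 of the 4 genes past the threshold, Zfp36, Jun and Ier3, the stretch just upstream of the gene is shown, and that of Egr1 is not. Transcription factors of the kinds named above are known to bind in such stretches. The 250 bases before the RefSeq start of transcription (build GRCm38.p6) run 5′ to 3′ toward the gene, in lower case, and capitals mark matches on either strand to any of 6 motifs: TGACNTCA (the CRE-like site of Creb and of Jun with Atf2), TGANTCA (AP-1), GCGNGGGCG (Egr), the CArG box of Srf, the NF-kB decamer and TATAAA. Of the 10 genes 8 matched an entry of the RefSeq promoter table. The letters searched were chosen with the sequences and the values known, and a match is a description of the letters only.
Zfp36 promoter, chr7:28379229-28379478, minus strand: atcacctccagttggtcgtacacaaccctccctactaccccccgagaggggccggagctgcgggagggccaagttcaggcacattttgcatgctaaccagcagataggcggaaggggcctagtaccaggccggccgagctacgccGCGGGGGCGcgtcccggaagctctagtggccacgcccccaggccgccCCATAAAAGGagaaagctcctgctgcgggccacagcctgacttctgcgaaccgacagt
Jun promoter, chr4:95052223-95052472, minus strand: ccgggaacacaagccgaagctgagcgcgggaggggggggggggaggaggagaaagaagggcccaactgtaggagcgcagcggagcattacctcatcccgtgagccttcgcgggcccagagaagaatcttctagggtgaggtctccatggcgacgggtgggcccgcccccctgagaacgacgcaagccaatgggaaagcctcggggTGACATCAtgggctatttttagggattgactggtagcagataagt
Ier3 promoter, chr17:35821463-35821712, plus strand: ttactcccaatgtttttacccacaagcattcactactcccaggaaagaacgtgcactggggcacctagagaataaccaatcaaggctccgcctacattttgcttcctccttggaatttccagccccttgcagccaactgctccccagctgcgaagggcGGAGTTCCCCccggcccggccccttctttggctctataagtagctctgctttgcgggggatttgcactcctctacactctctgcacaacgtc

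In the window of Zfp36 the Egr letters stood from -105 to -97 and a CArG box from -58 to -49, counted back from -1 at the base before the start. The first base of that CArG box is also the last base of a GC box (GGGCGG on the other strand, from -63 to -58). The window of Jun held a CRE-like match from -45 to -38 and a GC box on the other strand from -89 to -84. That of Ier3 held an NF-kB decamer on the other strand from -92 to -83, which overlaps a GC box from -96 to -91. Of 32851 such windows in the table, 7.49% held the CRE-like letters, 6.75% AP-1, 4.70% Egr, 1.47% a CArG box, 3.90% the NF-kB decamer, 32.7% a GC box and 12.4% TATAAA. Neither the AP-1 letters nor TATAAA were found in any of the 3 windows.

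Zfp36, the mRNA decay factor, gave the widest range of changes among the 10 genes. Its intensity was 208 in irradiated and 663.5 in untreated intestine, 3.19-fold lower (log2 -1.67). In liver it was 213.5 after irradiation and 454 without, 2.13-fold lower (log2 -1.09). In brain it was 164 in the irradiated and 138 in the untreated sample, a log2 ratio of 0.25. In liver and in intestine the irradiated sample thus stood below its untreated partner, while the pair of brain samples differed by less. The intestine change was deeper than that of all but 0.974% of the 13863 probes at or above the median in both intestine samples, and the liver change than that of all but 2.49% of 12844 such probes.

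Egr1 was below its untreated value in all 3 organs, and past the threshold in liver alone. There it had 130.5 in the irradiated and 405.5 in the untreated sample, 3.11-fold lower (log2 -1.64), the largest change of the 10 genes in liver. Of the liver probes at or above the median in both samples, 0.740% had a lower log2 ratio. In brain, where neurons are known to express Egr1 without added stimulus, it was 3214.5 after irradiation and 4051.5 without (log2 -0.33). In intestine the values were 129 and 163 (log2 -0.34), irradiated first. The Egr1 probe was brighter than 99.0% of all probes in irradiated and 99.3% in untreated brain. In liver it was brighter than 80.4% after irradiation and 93.1% without, and for intestine these shares were 76.4% and 81.0%. By rank the pairs from liver and intestine overlapped and the brain pair stood above both. Ranks within a sample are given because the organs were normalized apart and their intensities are not on 1 scale.

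Egr2, the relative of Egr1 best known from myelinating cells and the hindbrain, had 149.5 in irradiated and 146.5 in untreated brain (log2 0.03). Its probe lay below the sample's median elsewhere, at 36 in irradiated and 45 in untreated liver and at 46.5 in irradiated and 47 in untreated intestine, and no fold is given for such values. Of the pair of Egr genes, then, only Egr1 could be compared in liver and intestine.

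Among the AP-1 genes Jun alone passed the threshold. Jun, which can pair with itself as well as with Fos proteins, had 304 in irradiated and 585.5 in untreated liver, 1.93-fold lower (log2 -0.95), and the call was lost with 50 added to every value (log2 -0.84). It had 427 in irradiated and 395 in untreated brain (log2 0.11) and 332.5 in irradiated and 377 in untreated intestine (log2 -0.18). Junb, which often restrains Jun, had 233.5 in irradiated and 180.5 in untreated liver (log2 0.37), 362 and 494 in brain (log2 -0.45) and 185 and 195.5 in intestine (log2 -0.08), the irradiated sample first. Jund, the Jun protein most evenly present in resting cells, had 237 in irradiated and 189 in untreated liver (log2 0.33), 163 and 203.5 in brain (log2 -0.32) and 210.5 and 179 in intestine (log2 0.23). In liver, then, Jun lay on the lower side and Junb and Jund on the higher side of their untreated values, and neither Junb nor Jund passed 1.8-fold there.

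Fos, the partner that gives AP-1 its stable form, was read by 2 probes that differed in brightness and in change. The first probe had 249 in irradiated and 390 in untreated brain, 1.57-fold lower (log2 -0.65), and 478.5 in irradiated and 325 in untreated intestine, 1.47-fold higher (log2 0.56). The second had 114 and 118 in brain (log2 -0.05) and 80 and 79 in intestine (log2 0.02), again irradiated first. The brighter probe thus went opposite ways in brain and intestine, and the dimmer one was nearly level in both. In liver both Fos probes lay below the median, at 50.5 and 40.5 after irradiation and at 44 and 46 without. Fosb, a close relative that builds up in neurons on repeated stimulation, had 149.5 in irradiated and 107 in untreated brain (log2 0.48). Elsewhere Fosb sat near the floor of the array, at 31 and 30.5 in liver and 43.5 and 41.5 in intestine, where the lowest value of any probe was 26 in irradiated liver and 36 in both intestine samples.

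Ier3, whose small protein influences cell survival and whose mRNA is a known target of Zfp36, was the only one of the 10 genes higher past the threshold. It had 364 in irradiated and 155.5 in untreated intestine, 2.34-fold higher (log2 1.23), and 0.664% of the intestine probes at or above the median in both samples had a higher log2 ratio. In brain it had 209.5 and 161.5 (log2 0.38), and in liver 57.5 and 47.5, irradiated first, with the untreated liver value below the median. Ier2, a nuclear protein of uncertain role, lay below the median in all 6 samples, with 71.5 in irradiated and 73 in untreated brain, 48.5 in irradiated and 40.5 in untreated liver, and 51.5 in irradiated and 50.5 in untreated intestine.

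**Figure D2:**
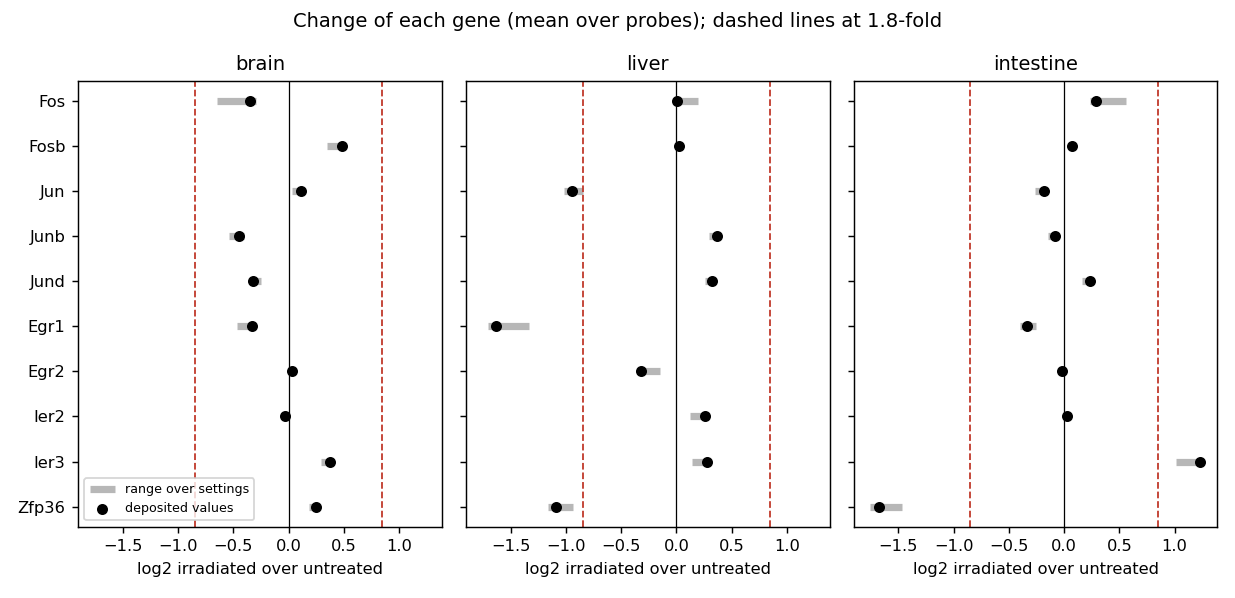
Log2 ratio of irradiated to untreated intensity for each gene (mean over its probes) in brain, liver and intestine; points are the deposited values, grey bars run from the lowest to the highest value over these and 6 other ways of processing them, and dashed lines mark 1.8-fold. Genes with values below the median are drawn too. Jun in liver is the point whose bar reaches inside the threshold, and Zfp36, Egr1 and Ier3 keep their side of it.

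By sign alone, and with values below the median included, Ier3 and Fosb were above their untreated values in 3 of 3 organs, Egr1 was below in 3 of 3, and the other 7 genes went both ways. Of the 10 genes, 9 had a probe at or above the median in both samples in brain, 7 had one in intestine and 5 had one in liver. The 5 of liver were Jun, Junb, Jund, Egr1 and Zfp36. Of all such bright probes 4.66% were lower and 2.89% higher by 1.8-fold in liver, 5.22% and 3.21% in intestine, and 1.96% and 0.678% in brain.

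No gene past the threshold had a second probe to check it. As a measure of how far a single probe can be trusted, the 2 brightest probes of 998 genes in liver differed in log2 ratio by a median of 0.34, and 1 gene in 10 differed by 0.94 or more. For 1201 genes of intestine these values were 0.37 and 1.02, and for 1113 genes of brain 0.34 and 0.86. The changes of Egr1 and Zfp36 in liver and of Zfp36 and Ier3 in intestine were larger than the second value of their organ, and that of Jun in liver was about equal to it. Such differences lie between probes within the same pair of samples and hold no variation between mice or dissections. They come from genes with 2 or more probes at or above the median in both samples. The changes set beside them were picked for being past the threshold.

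**Figure D3:**
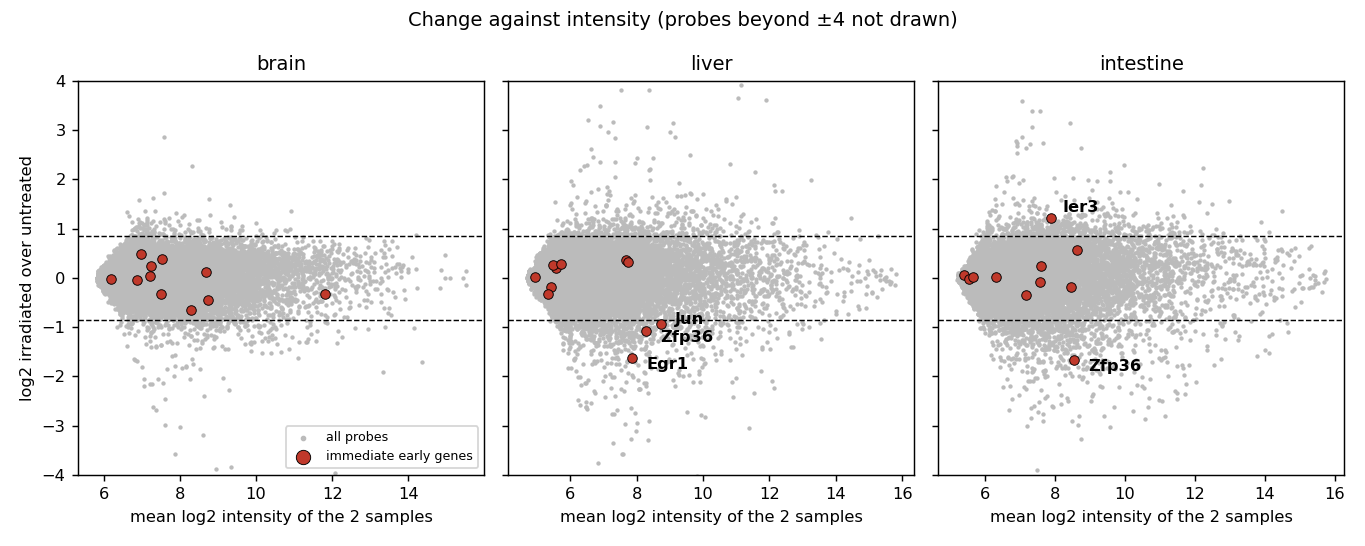
Log2 ratio of irradiated to untreated intensity of every probe (grey) against its mean log2 intensity in brain, liver and intestine, with the 11 probes of the 10 genes in red and 1.8-fold as dashed lines. Genes named in the panels are past the threshold (Egr1, Zfp36 and Jun in liver, Ier3 and Zfp36 in intestine), and no red point of brain lies outside the lines.

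The genes whose changes over the 3 organs lay nearest to those of each member past the threshold were found by Euclidean distance among 7508 genes with a probe above the median in every organ. For Zfp36 they were Ndufs1, a subunit of respiratory complex I (log2 0.09 in brain, -0.93 in liver and -1.48 in intestine), the mitochondrial aldehyde dehydrogenase Aldh6a1 (0.40, -1.10 and -1.39) and the clathrin light chain Clta (-0.04, -0.93 and -1.67). For Ier3 they were the phosphoinositide phosphatase Mtmr4 (0.36, 0.30 and 1.21), the Arp2/3 subunit Arpc4 (0.35, 0.22 and 1.15) and Perp, a known p53 target (0.50, 0.38 and 1.28). For Egr1 they were Nsmf (-0.48, -1.74 and -0.37), the MHC class I chaperone Tapbp (-0.40, -1.44 and -0.38) and the actin-binding Lasp1 (-0.52, -1.58 and -0.42). For Jun they were Hmcn2 (0.15, -0.91 and -0.24), the inducible Hsp70 gene Hspa1b (0.11, -1.06 and -0.29) and Prrc2b (-0.01, -0.85 and -0.23). Distances were 0.08 to 0.16 for Jun and 0.29 to 0.33 for Zfp36, each over 3 log2 ratios.

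Few other genes of the early response passed the threshold. Of 33 further primary response genes, among them Fosl1, Fosl2, Egr3, Atf3, Nr4a1 and Myc, 31 were measured in liver and 31 in intestine, and none passed 1.8-fold in either as the mean over probes. By its brighter probe alone the transcription factor gene Myc was lower in liver (log2 -1.02, against -0.48 over both probes). In brain 1 of 32 was higher, the TGF-beta induced Klf10 (926.5 in irradiated and 452 in untreated brain, 2.05-fold), and 1 was lower, the orphan nuclear receptor Nr4a1 (372.5 and 684, 1.84-fold), a call lost with 50 added. Median log2 ratios of this list were -0.02 in brain, -0.03 in liver and 0.06 in intestine.

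Upstream of the 10 genes, none of 27 measured kinases and promoter-bound factors passed the threshold in brain and none of 29 in liver. In intestine 1 of 29 did, the Ras effector kinase Braf, at 522 in the irradiated and 1012 in the untreated sample (1.94-fold lower). Of 16 measured feedback inhibitors none passed in brain or intestine, and 2 were lower in liver. Both probes of Spred2, an inhibitor of Raf activation, went down there, with 263.75 and 351 in irradiated and 1110 and 965.5 in untreated liver (4.21-fold and 2.75-fold). Dusp7, a phosphatase of Erk kinases, had 109.5 in irradiated and 273.5 in untreated liver (2.50-fold lower). The median of the feedback list in liver was -0.06. In liver, then, 2 feedback inhibitors were lower in the same pair of samples as Egr1, Jun and Zfp36. Of the upstream genes Mapk3, which encodes an Erk kinase, was also lower there by its brighter probe (log2 -1.18, against -0.75 over both probes). In brain the kinase gene Map2k4 was at -0.83, and at -0.94 after quantile normalization and -0.92 without the intensity trend, both past the threshold.

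Of 15 other measured genes of the bZIP family, to which Fos and Jun belong, Atf5 was higher in liver (643.75 in the irradiated and 296.5 in the untreated sample, 2.17-fold). None passed in brain or intestine. Of 17 measured targets of AP-1 and Egr factors, the intermediate filament gene Vim was higher in liver (598.5 and 239, 2.50-fold) and no other passed in any organ as the mean over probes. By its brightest probe the adhesion receptor gene Cd44 was higher in intestine (log2 0.91, against 0.37 over 3 probes). These targets had a median log2 ratio of 0.07 for the brain pair, -0.11 for liver and 0.24 for intestine.

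Around Zfp36, the list of mRNAs it is known to bind held 15 genes and includes Ier3 and Fos themselves. In liver, 1 of 14 measured was higher, the neutrophil chemokine Cxcl1, with 1645.75 in the irradiated and 184.5 in the untreated sample (8.92-fold). In intestine, 1 of 15 was higher, Ier3, and in brain none of 12 passed. None was lower in any organ, and the medians were 0.09 in brain, 0.0038 in liver and 0.11 in intestine. In a list of factors that carry out, affect or oppose AU-rich decay, 2 of 31 were higher in liver. They were the exosome subunit Exosc3 (425.5 in irradiated and 197.5 in untreated liver, 2.15-fold) and Elavl1, which stabilizes such mRNAs (604 and 322, 1.88-fold). The call of Elavl1 was lost after quantile normalization of all samples, after removal of the intensity trend and with 50 added. No factor of this list passed in brain or intestine as the mean over probes. Zfp36l1, a close relative of Zfp36 with the same kind of RNA-binding domain, was lower by its brightest probe in intestine (log2 -1.47, against -0.51 over 3 probes) and in liver (-0.91, against -0.45 over 2 probes), and the same values came from leaving out dim probes. The RNA-binding Tial1 was lower in intestine by its brighter probe (log2 -0.98, against -0.31 over both).

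Ier3 is also known as a target of NF-kB, so the feedback genes of that pathway were set beside it. Of 13 measured, none was higher in intestine and Nfkb1 was lower (79 in the irradiated and 154 in the untreated sample, a call lost with 50 added), as was Tnip1 by its brighter probe (log2 -1.12, against -0.55 over both). The inhibitor of apoptosis Birc3 was higher in liver, at 249.5 and 135, where 3 of 6 other settings lost the call, and in brain, at 260 in the irradiated and 102 in the untreated sample, where the untreated value was below the median. Genes induced by p53, the best known transcriptional response to ionizing radiation, were the list with the most genes past the threshold: 7 of 15 were higher and 1 was lower in intestine, 3 of 14 were higher and 1 was lower in liver, and 4 of 15 were higher in brain. The lower gene in intestine was Gadd45a (74.5 in the irradiated and 556.75 in the untreated sample, 7.47-fold), the largest change of the list there. In liver it was Plk3 (129.5 and 249.5), a call lost with 50 added. Higher in intestine were also Phlda3 (135.5 and 44.5, the untreated value below the median) and Plk2 (234.75 and 78). Mdm2, the ubiquitin ligase that turns p53 over, was higher in all 3 organs (1132 in irradiated and 546 in untreated brain, 871 and 353.5 in liver, 1568 and 596.5 in intestine). Cyclin G1 (Ccng1) was higher over both of its probes in liver and intestine, and its brighter probe had 595 in irradiated and 110 in untreated liver and 1597 and 357 in intestine. Also higher in brain were Phlda3 (367.5 and 164) and Trp53inp1 (193 and 91.5, untreated below the median). Cdkn1a was higher there as the mean of 2 probes, 1 of them below the median in untreated brain. Trp53inp1 was higher in liver too (439 and 230). With 50 added the calls of Trp53inp1 in brain and liver were lost. So were those of Cdkn1a in brain and intestine and of Zmat3 in intestine. The call of Cdkn1a in brain was also lost after removal of the intensity trend.

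**Figure D4:**
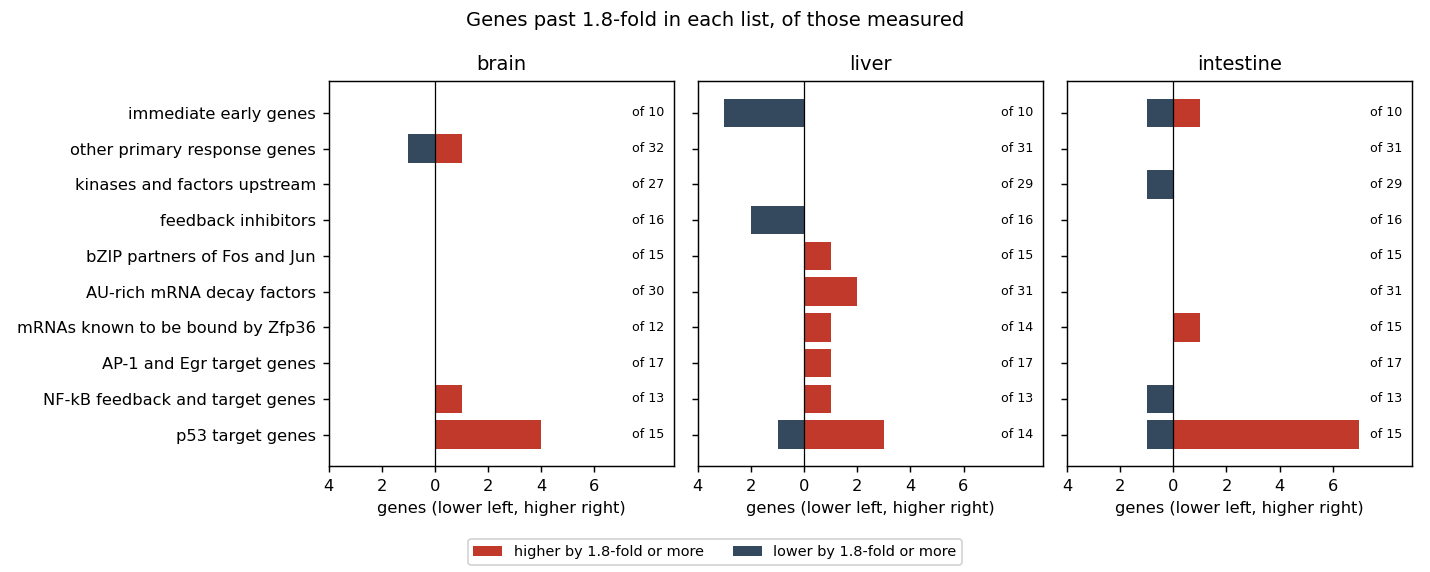
Number of genes past 1.8-fold in each list, with higher to the right and lower to the left of 0 and the number measured at the right edge, for brain, liver and intestine. The p53 targets have the longest bars (7 higher in intestine), and the immediate early genes have 3 lower in liver and 1 each way in intestine.

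The labelled organs were checked against their markers: 5 of 7 neuron markers in brain, 9 of 9 hepatocyte markers in liver and 7 of 7 enterocyte markers in intestine were brighter than 90% of probes in both samples of the organ. Markers of other cells moved in the same pairs of samples as the genes above. In liver, where Egr1, Zfp36 and Jun were lower, the macrophage markers Adgre1 (153 in irradiated, 361 in untreated) and Aif1 (167.5 and 317.5, a call lost with 50 added) were lower, 2 of 8, and the summed level of that list was 1394.5 in the irradiated and 1868.25 in the untreated sample. The neutrophil markers S100a8 (242.5 and 81) and S100a9 (263.75 and 108) were higher there, 2 of 6. Their list summed to 759.75 in irradiated and 422.5 in untreated liver, a rise held mostly by these 2 genes, and its median log2 ratio was 0.17. Of 8 T cell markers 1 was lower in liver (Cd3e at 92.5 and 186.5). In intestine, where Zfp36 was lower and Ier3 higher, 3 of 8 B cell markers were lower (Cd79b at 71 in irradiated and 471.5 in untreated intestine). The B cell list summed to 564 in the irradiated and 1133.5 in the untreated sample, a fall held mostly by Cd79b, and its median log2 ratio was -0.68. There too 6 of 9 hepatocyte markers were lower (Alb at 268 and 2175), as were 2 of 8 macrophage markers (Lyz2 at 256 and 901) and 1 of 8 T cell markers (Cd3d at 100 and 204.5). Of 7 goblet and Paneth cell markers 1 was lower (Lyz1 at 826 and 3446). That list had a median log2 ratio of 0.29 and summed to 59036.5 in irradiated and 46764.5 in untreated intestine. Of 6 exocrine pancreas markers 1 was lower (Ctrb1 at 315.5 and 1193.5), with a list median of 0.03. The endothelial Kdr was higher (241 and 104), 1 of 6. The summed hepatocyte list was 35742 in irradiated and 37448.5 in untreated intestine, and was held mostly by markers other than the 6 lower ones. Its median log2 ratio over the 9 genes was -0.92. The macrophage list there summed to 1644.5 in irradiated and 2274 in untreated intestine, a fall no larger than that of Lyz2 alone. Its median log2 ratio was -0.09. In brain Mbp of oligodendrocytes was lower (3143.5 and 6676), 1 of 5. The oligodendrocyte list summed to 4726.5 in irradiated and 8510 in untreated brain, with a median log2 ratio of -0.72 over its 5 genes. Alb was lower in brain too (112 and 290), while Ttr (428.5 and 229) and the B cell gene Blk (209.5 and 113) were higher. The B cell list had a median log2 ratio of -0.04 in brain. With 50 added the calls of Ttr and Blk in brain and of Cd3e in liver were lost. So were those of Cd3d, Adgre1, Tnfrsf13c, Fcmr, Serpinc1, Ttr and Cyp2e1 in intestine. The call of Ttr in brain was also lost after removal of the intensity trend. No neuron, astrocyte, enterocyte, smooth muscle or red blood cell marker passed the threshold in any organ. Their part in the changes of Zfp36, Egr1, Jun and Ier3 was not tested, and in whole organs fewer cells of a type and less RNA per cell cannot be told apart.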

How the data were processed

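Per the study's methods and the labels, RNA of each organ was labelled with Cy5 alone and read on the Mouse Whole Genome OneArray, an array of oligonucleotide probes. The deposited intensity values are linear, and the authors had subtracted local background, removed control spots and spots of low signal-to-noise, and normalized the rest in R (limma is named in the submitters' processing notes, with no version). The method of normalization is not given in the sources used here. The largest gap between the sorted log2 values of both samples was 0.03 for brain, 0.05 for liver and 0.04 for intestine, so each organ had been brought to 1 distribution apart from the others. Of 29922 probes, 27017 had values in brain, 28395 in liver and 29781 in intestine. No flag of detection was used, and a probe below its sample's median is given without a fold.

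Symbols came from the platform table for 21020 probes. Of these 17558 were kept, 3410 were updated to current RefSeq names and 52 were in neither form. Where on each gene a probe lies is not given in the sources used here. The log2 ratio of irradiated to untreated was taken per probe with nothing added, a gene was the mean over its probes, and 1.8-fold or more counted as past the threshold. Beside the members stood 9 pathway lists and 14 lists of cell type markers, written from general knowledge. From each pathway list up to 4 genes an organ past the threshold were to be named, largest first, the 3 nearest genes for each member past it, and up to 3 markers. The members and lists were chosen with earlier results of these data known. The calls were tested on simulated data, and no result given here rests on that test. The 9 alternatives were samples centred on their medians, quantile normalization of all 6 samples, loess removal of the intensity trend (span 0.3), 50 added, probes below the 25th percentile left out, the brightest probe of a gene, thresholds of 1.5-fold and 2-fold, and probes counted in place of genes. The number of arrays limits the precision. Python 3.11.15, numpy 2.4.6, pandas 2.3.3, statsmodels 0.14.6 and matplotlib 3.10.9 were used. Imaging and qPCR were not analysed here.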

Additional observations from a re-analysis of the deposited data

Results flagged for a closer look

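Some of the 10 genes went opposite ways in 2 organs by at least 1.1-fold each, over probes at or above the median in every sample concerned. With a single pair of samples per organ the differences were not tested. The bound of 1.1-fold is small: 2 probes of 1 gene differed in log2 ratio by a median of 0.34 in brain, 0.34 in liver and 0.37 in intestine. Jund in each organ and Zfp36 in brain changed by less than that. The log2 ratio of Zfp36 in brain exceeded that in intestine by 1.92 and that in liver by 1.34, with the change past 1.8-fold in liver and intestine alone. The brighter Fos probe was higher in intestine and lower in brain, 1.21 apart. Junb was 0.82 higher in log2 ratio in liver than in brain. Jund was 0.65 higher in liver and 0.55 higher in intestine than in brain.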

How the results depend on the processing

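No paired analysis was possible because each comparison was made within 1 organ, with 1 sample of each treatment. A fit over the 3 organ pairs was not run. Over 177 values of the 10 genes under the 6 other ways of processing, 176 kept their side of the threshold, none changed sign after being past it, and 1 lost it: Jun in liver, at -0.84 with 50 added. That left 2 genes lower in liver, as did a threshold of 2-fold, and the other counts of the 10 genes were the same in every setting run, at 1.5-fold and over probes too. Log2 ratios ranged from -1.76 to -1.47 for Zfp36 in intestine, -1.16 to -0.94 for Zfp36 in liver, -1.71 to -1.34 for Egr1 in liver, and 1.01 to 1.24 for Ier3 in intestine. By the brightest probe alone 2 more p53 targets were higher, Ccng1 in brain (log2 0.96) and Eda2r in intestine (log2 1.11). With 50 added the p53 targets that were higher numbered 2 in brain, 2 in liver and 5 in intestine. Among 1242 values of the other lists 65 moved, by over 0.1 in a median, by over 1.5 times in a count, or to or from a count of 0. In liver 5 of the 10 genes lay below the median in at least 1 sample, and how they changed could not be read. Leaving out a sample leaves no comparison.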
